A study of Homo sapiens with 6 samples.

Results

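The cytosolic ribosomal protein (RP) genes were described in A2780 cells, an established human ovarian cancer line, cultured in DMEM with fetal bovine serum. Polyadenylated RNA was sequenced from 3 untreated libraries and from 3 libraries of cells grown for 48 h with r-CRMP2 at 40 ng/ml in the medium, which is recombinant human CRMP2, a cytoplasmic phosphoprotein best known from neurons. All 6 libraries came from wild-type cells at the 48 h time point, and the untreated cells received no r-CRMP2. The genes were chosen by name from the protein-coding rows of the deposited tables, as RPL or RPS followed by a number with at most a closing A, L or X, together with RPLP0, RPLP1, RPLP2 and RPSA. This gave 80 of 44591 genes, 49 of the large and 31 of the small subunit, and 78 of the 16222 genes that passed the low-count filter.

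Ribosomes translate every mRNA of the cell. The small subunit reads the mRNA, the large subunit joins the amino acids, and each RP is incorporated in a fixed copy number around the ribosomal RNAs. Most RP mRNAs belong to the TOP mRNAs, which start with a cytosine followed by an unbroken run of pyrimidines. This 5′ terminal oligopyrimidine motif lets the mTORC1 kinase and the RNA-binding protein LARP1 control the translation and stability of the whole class together.

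The first bases of RP transcripts are shown here because this motif is the sequence feature that the class shares. They were taken from the RefSeq promoter table (assembly GRCh38.p14), which held an entry for 62 of the 78 RP genes tested. Each line gives 10 bases before the annotated start and the first 20 bases from it, 5′ to 3′. Capitals mark the C-led run of at least 5 pyrimidines that begins nearest to the start. Pyrimidines directly before its first base stay in lower case. The first 5 genes are those with the largest fold changes among the RP genes, RPLP0 and RPS6 are abundant members with known roles, and the last 4 are among those with the smallest fold changes.
RPS3A, chr4:151099618-151099647, plus strand: cccacttccgCCCTTTTggctctctgacca
RPL34, chr4:108620566-108620595, plus strand: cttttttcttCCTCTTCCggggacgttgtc
RPL39, chrX:119791611-119791640, minus strand: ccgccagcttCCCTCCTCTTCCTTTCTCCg
RPL36A, chrX:101391001-101391030, plus strand: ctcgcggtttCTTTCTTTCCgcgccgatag
RPL28, chr19:55385922-55385951, plus strand: cctcgccttcCTCTTTCCgtctcaggtcgc
RPLP0, chr12:120201092-120201121, minus strand: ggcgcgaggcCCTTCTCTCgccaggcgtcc
RPS6, chr9:19380217-19380246, minus strand: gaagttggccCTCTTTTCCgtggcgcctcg
RPL36, chr19:5690285-5690314, plus strand: cggcgccagcCCTTCCgccacggccgtctc
RPS26, chr12:56041908-56041937, plus strand: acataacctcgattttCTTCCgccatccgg
RPL19, chr17:39200313-39200342, plus strand: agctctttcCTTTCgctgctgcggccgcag
RPL6, chr12:112411423-112411452, minus strand: gtatcctcagtgaatcagaaccagaaaaag

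In 8 of these 11 windows the capitals began at the annotated first base, in most with further pyrimidines directly before them. In RPS26 the capitals began 6 bases after it, and the RPL6 window held no such run. In RPL19 they began 1 base before it, at the end of a longer pyrimidine run that opened further upstream. The table lists a second start for RPL34, RPL6 and RPL19, not shown. A C followed by at least 4 more pyrimidines stood at an annotated start of 46 of the 62 matched RP genes (74.2%), against 7.21% of the 10520 tested genes with an entry and 4.07% of all promoters in the table. A C-led run of at least 5 pyrimidines beginning within 10 bases of the start was present in 57 RP genes (91.9%), against 42.1% of the tested genes and 33.5% of all promoters. These are matches in annotated windows and not mapped transcript starts.

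Depth was 21888530 to 25711353 counts per library. The scaling factors of the trimmed mean of M-values method (TMM) were 1.10 to 1.12 in the untreated and 0.878 to 0.922 in the r-CRMP2 libraries, so the choice of scaling moved all genes. With TMM the median log2 fold change of all genes tested was -0.03, and with library size alone it was -0.34. KRT8 and KRT18, keratins of epithelial cells, were the highest of 8 epithelial and ovarian markers, and CDH1 and WT1 lay under 1 CPM (the count scaled to library size). Of the blood and endothelial markers, PTPRC, which marks leukocytes, and CD3E, which marks T cells, lay near 0. CD68, which marks macrophages, was higher with r-CRMP2 (log2 fold change 1.69, edgeR's quasi-likelihood test, adjusted p = 3.01e-12), and CDH5, a cadherin of endothelial cells, was lower (-1.96, adjusted p = 8.48e-08, edgeR). The summed CPM by library size of these 6 markers was 31.7 to 35.3 in untreated and 67.6 to 70.0 in r-CRMP2 libraries, most of it CD68, while the median log2 fold change of the 4 tested was -0.93. The sum of 8 fibroblast markers was 573 to 672 against 405 to 421, most of it COL1A1, while of the 7 tested 2 were higher and 2 lower with a median of 0.21, and that of the epithelial and ovarian markers was 2818 to 2905 against 2446 to 2560. The part of these shifts in the results below was not tested.

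The comparison of r-CRMP2 with untreated cells asked how the treatment changed the transcriptome. RP mRNAs were higher with r-CRMP2 as a class, by a small and uniform amount. Of the 78 RP genes tested, 77 rose at an adjusted p under 0.05 and 0 fell, which is 98.7% of them, against 28.2% of all genes tested that rose and 30.1% that fell (edgeR's quasi-likelihood test, Benjamini-Hochberg adjustment over 16222 genes). RPL39L was the member not called. The median log2 fold change of the RP genes was 0.55, a 1.46-fold difference. No RP gene passed the second threshold of an absolute log2 fold change over 1, which 5.12% of all genes passed upward and 8.86% downward. In bulk RNA, fewer cells of a type and less RNA per cell cannot be told apart, and the values are relative to the other mRNAs of a library. The labels number the 3 libraries of a group as replicates without naming separate cultures, so p-values measure the spread between these libraries, which may be technical.

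The RP genes moved within a narrow band. The middle 50% of their log2 fold changes lay between 0.49 and 0.58, against -0.44 to 0.33 for all genes tested. Their standard deviation was 0.10, against 0.76 over all genes, and 67 of 78 lay within 0.1 of their median. The 77 called genes ranged from 0.25 to 0.66, with adjusted p of 1.15e-07 to 0.00335 by edgeR's quasi-likelihood test. TMM-scaled CPM did not overlap between the groups for 77 RP genes, all higher with r-CRMP2, against 30.9% of all genes.

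**Figure D1:**
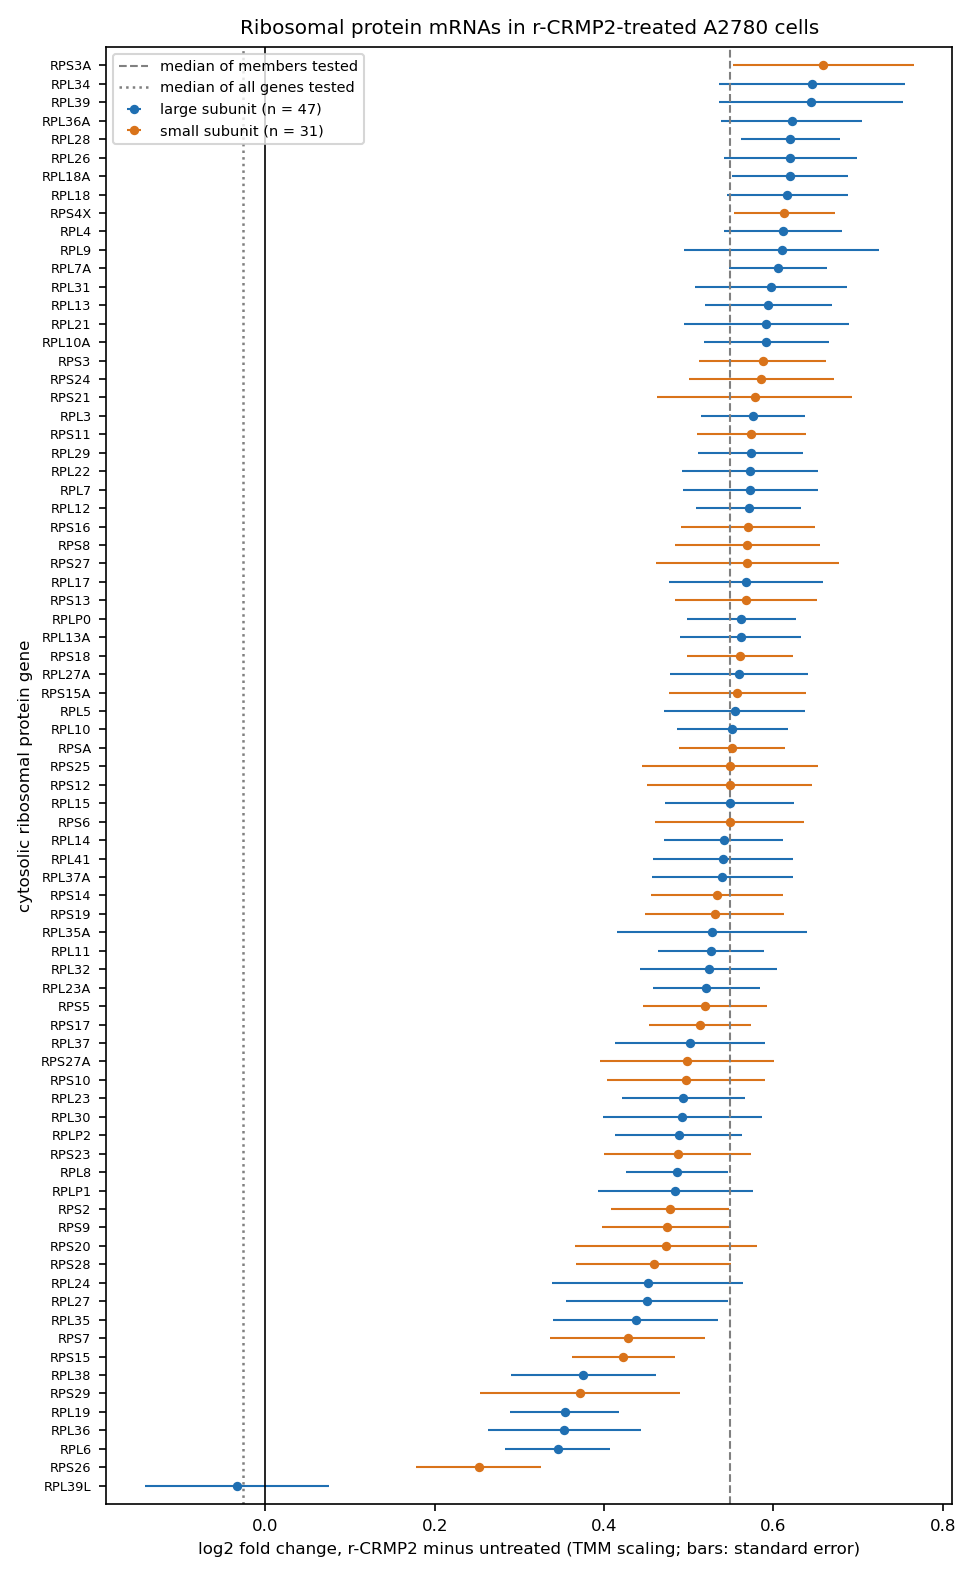
Log2 fold change (r-CRMP2 minus untreated, TMM scaling, horizontal axis) of each of the 78 RP genes tested (vertical axis), with bars for the standard error. That error was computed from the log2 CPM of the libraries and not from the edgeR fit. All points but RPL39L lie right of 0 and most cluster at the dashed median of 0.55; with scaling by library size alone the estimate of RPS26 turned to -0.06.

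With library size alone as the scale the size of the difference was smaller and its excess over other genes was nearly the same. The RP median was then 0.24, with 66 genes higher against 13.4% of all genes tested, 11 not called and 1 lower against 52.1% of all genes. The gene that was lower was RPL39L, and RPS26 was among those not called, with an estimate of -0.06. CPM by library size did not overlap between groups, and was higher with r-CRMP2, for 69 of 78 RP genes, against 15% of all genes tested. The RP median exceeded the median of all genes by 0.58 with TMM and by 0.57 with library size. A change of scaling factors shifts all genes by nearly the same amount, so this excess is kept by construction.

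RP genes took a larger share of each r-CRMP2 library, a measure in which TMM plays no part. They held 6.64%, 6.70% and 6.77% of all counts in the untreated libraries (mean 6.70% ± 0.0626, SD, n = 3). In the r-CRMP2 libraries they held 7.56%, 8.50% and 7.53% (7.86% ± 0.554, SD, n = 3). The groups did not overlap, and r-CRMP2 replicate 2 stood above the other two. In TPM, which divides each count by gene length, RP genes made up 15.9% ± 0.102 of an untreated and 18.3% ± 0.858 of an r-CRMP2 library (SD, n = 3). The 15 genes of the mitochondrial genome moved the opposite way, from 6.19 to 6.58% of counts in untreated to 3.76 to 4.09% in r-CRMP2 libraries. With those genes left out of the totals, the RP share was 7.16% against 8.18%.

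**Figure D2:**
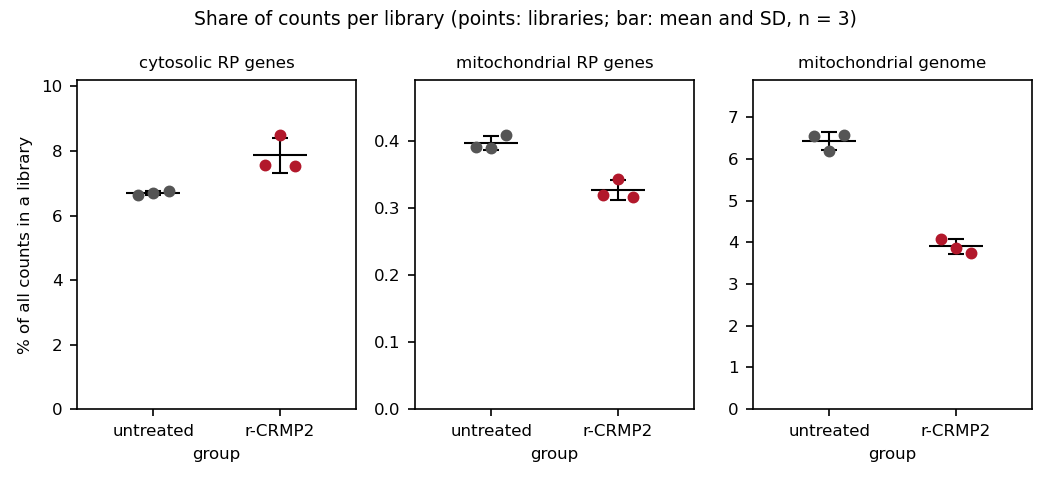
Percent of all counts of a library (vertical axes) held by cytosolic RP genes, mitochondrial RP genes and the mitochondrial genome in untreated and r-CRMP2 cells; points are libraries, bars give mean and SD (n = 3). The cytosolic RP share is higher in all 3 r-CRMP2 libraries (7.53 to 8.50% against 6.64 to 6.77%), and the other shares are lower.

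Every one of the 78 RP genes had its highest r-CRMP2 value in replicate 2. The median log2 deviation from the untreated mean was 0.46, 0.69 and 0.48 in r-CRMP2 replicates 1, 2 and 3. Without r-CRMP2 replicate 2, the same number of genes, 77, was higher, with a median of 0.48.

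**Figure D3:**
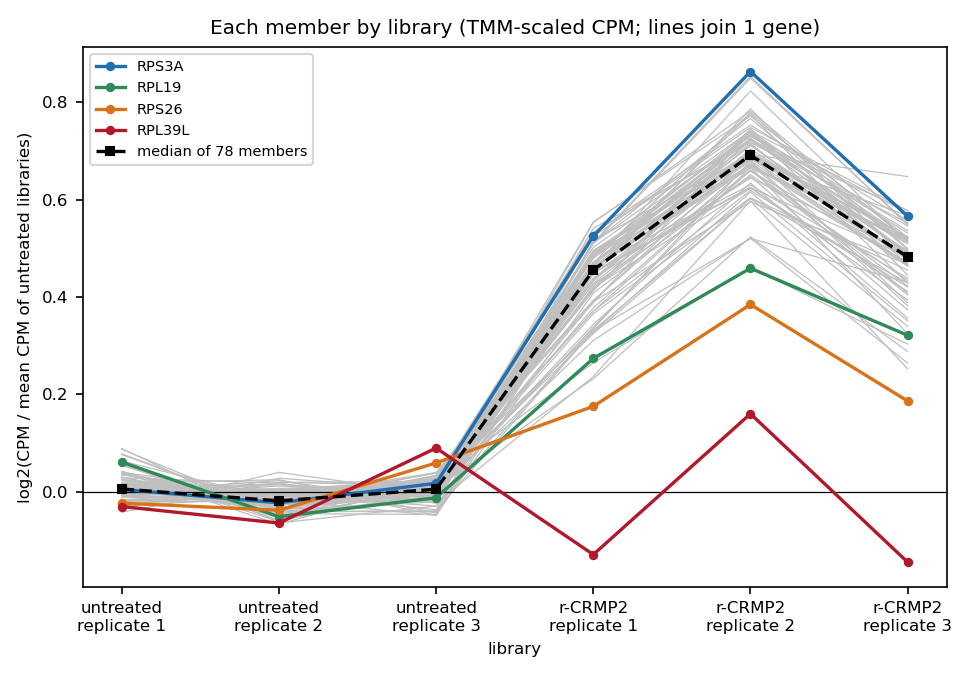
Log2 of TMM-scaled CPM over the mean of the untreated libraries (vertical axis) for each of the 78 RP genes in each of the 6 libraries; a line joins the values of a gene and has no meaning as an order. The untreated libraries lie at 0, the r-CRMP2 libraries above it with replicate 2 highest (median 0.69), and RPL39L lies between -0.14 and 0.16; by library size alone RPL39L was lower and RPS26 had an estimate of -0.06.

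Both subunits rose. The median log2 fold change was 0.55 for the large subunit (46 of 47 genes higher) and 0.55 for the small subunit (31 of 31 higher). In the whole class 98.7% of the RP genes tested were higher, against 28.2% of all genes, so these counts do not set either subunit apart. The ratio of large to small subunit counts was 1.91, 1.92 and 1.90 without and 1.93, 1.89 and 1.93 with r-CRMP2, and these ranges overlapped.

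The 5 largest log2 fold changes belonged to RPS3A of the small subunit and to RPL34, RPL39, RPL36A and RPL28 of the large subunit. RPS3A measured 1999, 1961 and 2017 CPM in untreated and 2867, 3623 and 2949 CPM in r-CRMP2 libraries (log2 fold change 0.66, SE 0.11, adjusted p = 7.21e-07 by edgeR's quasi-likelihood test). Here and below the SE comes from the log2 CPM of the libraries and not from the edgeR fit. Its 3 r-CRMP2 values all lay well above the untreated ones, with replicate 2 apart from the others. RPL39, a small protein that lines the exit tunnel of the nascent chain, measured 277, 265 and 272 against 386, 489 and 397 CPM (0.64, SE 0.11, adjusted p = 7.47e-07, edgeR). RPL28, which has no counterpart in budding yeast, measured 451, 448 and 428 against 632, 715 and 693 CPM (0.62, SE 0.06, adjusted p = 1.15e-07, edgeR). The r-CRMP2 values of RPL28 were less spread than those of RPS3A and RPL39. RPL34 and RPL36A had log2 fold changes of 0.65 and 0.62. RPL36A is uncertain, since the readthrough gene RPL36A-HNRNPH2 on the same strand was listed with 94.2% of the counts of RPL36A itself.

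At the other end stood RPL39L, RPS26, RPL6, RPL36 and RPL19. RPL39L is a paralog of RPL39 that is best known from testis. It measured 22.9, 22.4 and 24.9 CPM in untreated and 21.4, 26.1 and 21.2 CPM in r-CRMP2 libraries, and the groups overlapped (log2 fold change -0.03, SE 0.11, adjusted p = 0.777, edgeR). It lies at chr3:186838741-186857263 (coordinates as deposited, hg19 in the processing notes), and a same-strand pseudogene, RPL39P19, was listed inside it with 29.7% of its counts. RPS26, which binds mRNA at the exit of its channel, measured 169, 167 and 178 against 193, 224 and 195 CPM (0.25, SE 0.07, adjusted p = 0.00335, edgeR). RPL6 measured 1353, 1317 and 1373 against 1619, 1854 and 1663 CPM (0.35, SE 0.06, adjusted p = 1.74e-04, edgeR). For both genes the groups did not overlap on the TMM scale, and the steps were smaller than that of RPS3A. RPL36 measured 296, 288 and 295 against 344, 421 and 358 CPM (0.35, SE 0.09, adjusted p = 2.91e-04, edgeR). RPL19, which helps to bridge the subunits, measured 1240.4, 1148 and 1179 against 1438, 1634 and 1486 CPM (0.35, SE 0.06, adjusted p = 1.43e-04, edgeR). RPL36 was again highest in r-CRMP2 replicate 2, and neither gene overlapped between groups on the TMM scale. With library size alone RPS26, RPL6, RPL36 and RPL19 overlapped between groups and were not called.

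To set the RP genes against each other, the fit was repeated with the summed RP counts as library size, so that a gene is compared with the RP total. In this fit 7 RP genes were lower than the total and 0 higher, and 71 were not called, while 65.3% of all genes tested were lower and 6.31% higher (edgeR's quasi-likelihood test). A gene not called is not thereby shown to move with the total. RPS7, for example, was not called at -0.12 (SE 0.02, adjusted p = 0.099, edgeR). RPL39L had the largest difference (log2 -0.58, adjusted p = 1.46e-04), followed by RPS26 (-0.29, adjusted p = 0.00231), RPL6 (-0.20, adjusted p = 0.00394), RPL36 (-0.19, adjusted p = 0.0168) and RPL19 (-0.19, adjusted p = 0.00738), all by edgeR. RPS29, a zinc-binding small subunit protein (-0.17, adjusted p = 0.0462), and RPL38, known for its part in translating homeobox mRNAs in mouse embryos (-0.17, adjusted p = 0.0489), were close to the threshold in edgeR. The calls of 4 genes, RPL39L, RPS26, RPL6 and RPL19, were kept in all 11 alternatives to this fit. The number depended on r-CRMP2 replicate 2: without it 12 genes were lower and RPL28 was higher, and the count fell to 4 without untreated replicate 2, untreated replicate 3 or r-CRMP2 replicate 1. It was also 4 in the fit with a replicate block.

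The lists of 4 functional sites of the ribosome were examined, and all their genes rose, as did 98.7% of the RP genes tested. The acidic stalk that recruits elongation factors is made of RPLP0, RPLP1 and RPLP2 on a base that holds RPL12, and all 4 genes rose, by 0.48 to 0.57 on the log2 scale. RPLP0 measured 3205, 3215 and 3242 against 4495, 5185 and 4584 CPM (log2 fold change 0.56, adjusted p = 9.17e-07, edgeR). RPLP1 measured 1557, 1588 and 1597 against 2044, 2498 and 2093 CPM (0.48, adjusted p = 1.41e-05, edgeR). RPLP2, which pairs with RPLP1 in the stalk, measured 833, 779 and 815 against 1082, 1246 and 1076 CPM (0.49, adjusted p = 5.39e-06, edgeR). In all 3 genes every r-CRMP2 value lay above every untreated one.

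RPL5 and RPL11 form a particle with the smallest ribosomal RNA, and this particle can bind MDM2, the ubiquitin ligase of p53, when ribosome assembly is disturbed. RPL5 measured 833, 820 and 856 against 1149, 1370 and 1164 CPM (log2 fold change 0.55, SE 0.08, adjusted p = 1.69e-06, edgeR). RPL11 measured 596, 593 and 608 against 812, 936 and 841 CPM (0.53, adjusted p = 1.20e-06, edgeR). In both genes the lowest r-CRMP2 value lay above the highest untreated value. Of the proteins around the exit tunnel 7 of 7 genes rose (median 0.57), and at the decoding site and mRNA channel 5 of 5 rose (0.42 to 0.59). All 19 listed genes mutated in Diamond-Blackfan anemia, an inherited failure of red cell production caused by loss of an RP copy, rose with a median of 0.53. All these genes belong to the RP class, of which 98.7% rose, against 28.2% of all genes. Full counts therefore do not set these sites or the disease genes apart from the class.

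All 14 members listed for known roles rose, as did 98.7% of the RP genes tested. RPS6, the substrate of the S6 kinases, measured 1108, 1033 and 1091 against 1454, 1755 and 1518 CPM (log2 fold change 0.55, SE 0.09, adjusted p = 2.42e-06, edgeR). RPS27A, which is made as a fusion with ubiquitin, had a log2 fold change of 0.50, and RPSA, also known as the laminin receptor precursor, had 0.55. RPS3, which also acts in DNA repair, had 0.59, and RPS19, the gene most often mutated in Diamond-Blackfan anemia, had 0.53. RPL13A, a part of the interferon-responsive complex that silences inflammatory mRNAs, had 0.56. RPL22, which is lost in some T cell leukemias, went from 364 ± 6.43 to 542 ± 52.6 CPM (SD, n = 3; log2 fold change 0.57). RPS4X, encoded on the X chromosome, had 0.61, RPL10, which is needed for the last step of large subunit maturation, had 0.55, and RPS25, which is needed for initiation on several viral RNAs, had 0.55. Each of these genes was called by edgeR's quasi-likelihood test at adjusted p under 0.05. Of the 14 genes listed for such roles, RPL38 was lower in the fit scaled to the RP total, as given above, and the others were not called there.

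Levels of the RP mRNAs differed far more than their changes. On the TPM scale, as the mean of the 6 libraries, members tested ranged from 72.1 (RPL39L) to 7949 (RPLP1), with a median of 1968. The next highest were RPLP0 at 6754, RPL7A at 5444, RPL4 at 5393 and RPS2 at 5357 TPM. The next lowest were RPL28 at 231, RPS29 at 279, RPL36A at 324 and RPS23, a protein of the decoding site, at 393 TPM. The deposited length of RPL28 was 5185 bases, the longest of the RP genes, against a median of 883.5, and TPM divides by that length. Of the 78 genes, 62 were over 1000 TPM, and 20 of the 50 genes with the highest mean TPM were RP genes. The order of the genes by TPM was nearly the same in the group means (Spearman's rho = 0.994 across the 78 genes, which share libraries and are not independent). Across the same genes rho was 0.0024 between fold change and TPM level and 0.23 between fold change and length.

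RPL3L and RPL10L, the paralogs of RPL3 and RPL10 known from striated muscle and testis, did not pass the filter. RPL3L had 5, 0 and 2 counts in untreated and 6, 1 and 0 in r-CRMP2 libraries. RPL10L had 1 count in all. At this depth no difference was detectable for either gene.

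Other abundant genes also tended to be higher. The 923 tested genes at least as abundant as RPS26, the least abundant RP gene beside RPL39L, had a median log2 fold change of 0.44, and 76.9% of them were higher. Among the 846 of them that are not RP genes, 633 were higher (74.8%) and 77 lower, with a median of 0.41. The RP median of 0.55 is to be read against these values as well as against those of all genes. Across all genes tested, Spearman's rho of fold change with abundance was 0.27, and with length it was -0.08. This comparison by abundance was chosen after the values were seen, and its part in the RP result was not tested.

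**Figure D4:**
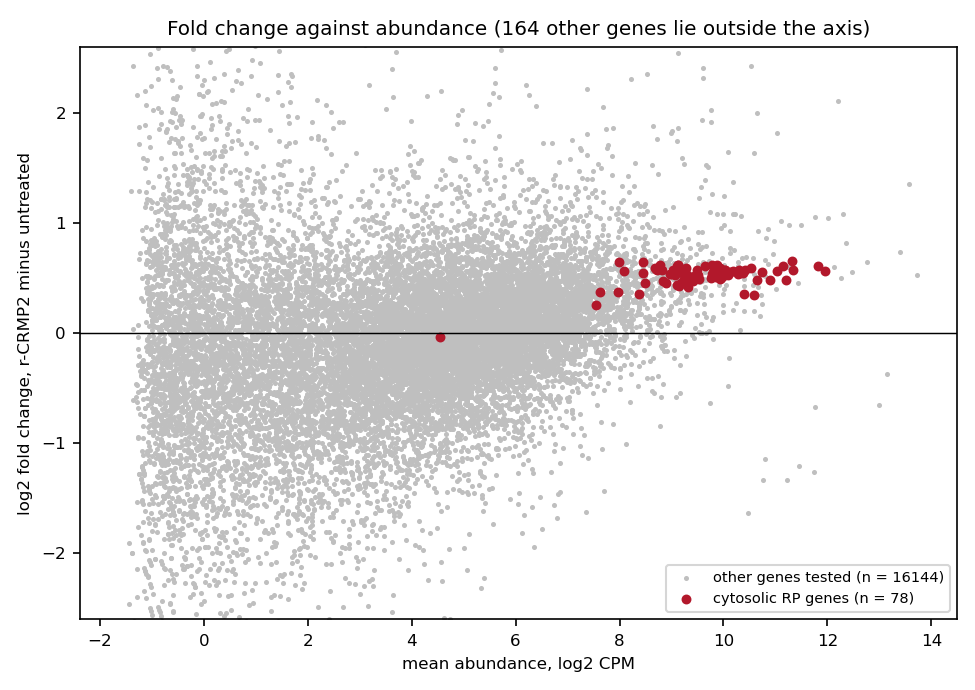
Log2 fold change (r-CRMP2 minus untreated, TMM scaling, vertical axis) against mean abundance (log2 CPM, horizontal axis) for the 78 RP genes and all other genes tested. RP genes form a tight band at about 0.55 within a cloud of abundant genes that also lies mostly above 0 (median 0.41 for the 846 others); by library size alone RPS26 lies at -0.06.

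Pseudogenes and readthrough genes share sequence with RP genes, so reads may have been split between them. The tables held 1193 RP pseudogene rows with 0.0922 to 0.0968% of counts in untreated and 0.103 to 0.115% in r-CRMP2 libraries. For most members they were minor, but RPS28P7 and 3 other copies held 37.2% of the counts of RPS28 and its pseudogenes together, and those of RPS2 held 13.9%. Beside RPL36A, the readthrough gene RPS10-NUDT3 was listed with 87.1% of the counts of RPS10 and RPL17-C18orf32 with 71.7% of those of RPL17. With pseudogene counts added to their parents, 77 RP genes were again higher, with a median of 0.55. Parents were assigned by name, so RPL39P19, which lies inside RPL39L, was added to RPL39. The counts of RPL39L were left unchanged, and this alternative does not address their overlap.

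RP genes with and without a C-led run of pyrimidines at the annotated start overlapped in fold change. The 46 RP genes with a C-led run at the start had a median log2 fold change of 0.56 (0.35 to 0.66), and the 16 without one had 0.49 (0.25 to 0.61). RPS26, RPL6, RPL19 and RPS29 were among the 16, as were RPL4 and RPS4X with 0.61 each. Other promoter motifs were searched on both strands from 250 bases before to 50 bases after the start. CCGGAAG, a core of ETS and GABP sites, was present in 35.5% of matched RP genes and 21.6% of tested genes. CACGTG, the E-box bound by MYC, was present in 6.45% against 12.5%, and TATAAA in 8.06% against 8.52%. The shares in all promoters were 10.3%, 7.26% and 11.5%, respectively.

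Genes outside the naming rule that encode RP paralogs or an RP fusion, called RP-like here, moved in both directions. Of 6 described, 4 rose and 2 fell, against 28.2% of all genes tested that rose and 30.1% that fell. Their median log2 fold change was 0.19, which turned to -0.12 with library size alone. RPL22L1, a paralog of RPL22, measured 11.6, 12.7 and 13.8 against 26.4, 39.4 and 30.4 CPM (log2 fold change 1.33, adjusted p = 1.82e-08, edgeR), the only one past both thresholds. RPL7L1, a paralog of RPL7, measured 129, 136 and 145 against 78.0, 72.0 and 67.3 CPM (-0.92, adjusted p = 2.04e-09, edgeR). Neither overlapped between groups, and against the RP total RPL22L1 was higher (adjusted p = 4.09e-05, edgeR) and RPL7L1 lower (adjusted p = 5.20e-08, edgeR). In that fit 5 of the 6 genes were lower and 1 was higher, against 65.3% and 6.31% of all genes tested. RPL26L1, a paralog of RPL26, was also lower (-0.30). FAU, which encodes an RP fused to a ubiquitin-like protein, rose by 0.33 on the log2 scale. RPS27L and RPL36AL rose by 0.21 and 0.16 with TMM and had estimates of -0.10 and -0.15 with library size alone.

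Other TOP mRNAs, mostly of the translation machinery, also rose. Of 26 tested, 25 rose and 0 fell, against 28.2% of all genes and 74.8% of the abundant genes outside the RP class that rose, with a median log2 fold change of 0.50 (0.19 with library size alone). Against the RP total 2 were higher, EEF1A1 and TPT1, and 5 were lower, EIF3K, IMPDH2, EIF3G, EIF3M and COX4I1 (edgeR). EEF1A1, the elongation factor that delivers aminoacyl-tRNA, measured 7936, 8198 and 8096 against 12724, 14361 and 13164 CPM (0.73, adjusted p = 2.92e-08, edgeR), and TPT1, an abundant TOP mRNA, had 0.68. The lowest called were IMPDH2, an enzyme of guanine nucleotide synthesis, and the initiation factor subunit EIF3G, both at 0.21 and both with negative estimates, -0.11 and -0.10, by library size alone. EIF3K was not called (0.06). Hosts of small nucleolar RNAs, which also carry the TOP motif, rose in 11 of 12 cases with a median of 0.68. SNHG1 and EPB41L4A-AS1 both reached 1.06, the latter being an antisense gene whose reads cannot be told from those of its partner without strand, SNHG5 and SNHG8 had 0.41 and 0.33, and SNHG17 was not called (0.0029).

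Genes that control TOP mRNAs or make ribosomes moved in both directions, with shares to be read against the 28.2% of all genes that rose and the 30.1% that fell. Of 18 genes of mTORC1 signaling and TOP control, 7 rose and 7 fell, with a median log2 fold change of -0.12. EIF4EBP2 and PDCD4, inhibitors of translation initiation, fell by 1.15 and 0.83 on the log2 scale, while EIF4EBP1, the paralog of EIF4EBP2, rose by 0.73 and CNBP, a protein that binds TOP mRNAs, by 0.93. LARP1 rose by 0.20, with an estimate of -0.11 by library size alone, and RPS6KB1, an S6 kinase, fell by 0.57. Of 44 ribosome biogenesis factors, 13 rose and 17 fell (median -0.15). LTV1 and RRS1, assembly factors of the small and large subunit, fell by 1.14 and 1.10, and FBL, the methyltransferase of box C/D particles, and RIOK1, a kinase of late small subunit maturation, rose by 0.61 and 0.60.

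The RNA polymerase that transcribes ribosomal RNA and its factors gave 4 genes higher and 6 lower of 15 (median -0.15). This count and those below are also read against the 28.2% of all genes that rose and the 30.1% that fell. POLR1A, its largest subunit, measured 54.2, 60.8 and 65.8 against 30.4, 24.7 and 28.7 CPM (log2 fold change -1.11, adjusted p = 3.36e-09, edgeR), and UBTF, a factor that opens ribosomal DNA, fell by 0.85. POLR1D and TAF1D rose by 0.58 and 1.31. The 10 dedicated chaperones and turnover factors of RPs gave 2 higher and 4 lower (median -0.13). HEATR3, which imports RPL5 into the nucleus, and GRWD1, a chaperone of RPL3, fell by 1.08 and 0.52, while NAP1L1 and UBE2O, a ligase that removes unassembled RPs, rose by 0.53 and 1.30. Of 10 factors that bind RP promoters, 4 rose and 2 fell (median 0.13, and -0.18 with library size alone). MYC measured 500, 498 and 511 against 772, 862 and 807 CPM (0.69, adjusted p = 1.83e-08, edgeR), with YY1 at 0.54, and both GABPA and GABPB1, partners in the ETS-type factor GABP, fell by 0.27 and 0.33.

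The RPs of mitochondrial ribosomes are encoded in the nucleus and served as the other RP family. Of 78 tested, 14 rose, 27 fell and 37 were not called, against 28.2% of all genes that rose and 30.1% that fell. Their median log2 fold change was -0.01, near that of all genes. They ranged from -0.86 (MRPL1) to 0.76 (MRPS6), with MRPL47 at -0.79 and MRPL17 at 0.56, and 0 passed both thresholds in either direction. Their share of counts was 0.392%, 0.390% and 0.410% in untreated and 0.320%, 0.344% and 0.317% in r-CRMP2 libraries. The library share of the cytosolic family was thus higher and that of the mitochondrial family lower. With library size alone the median of all genes tested was also below 0, at -0.34, and 52.1% of them were lower. The lower share of mitochondrial RPs is therefore not particular to this family.

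**Figure D5:**
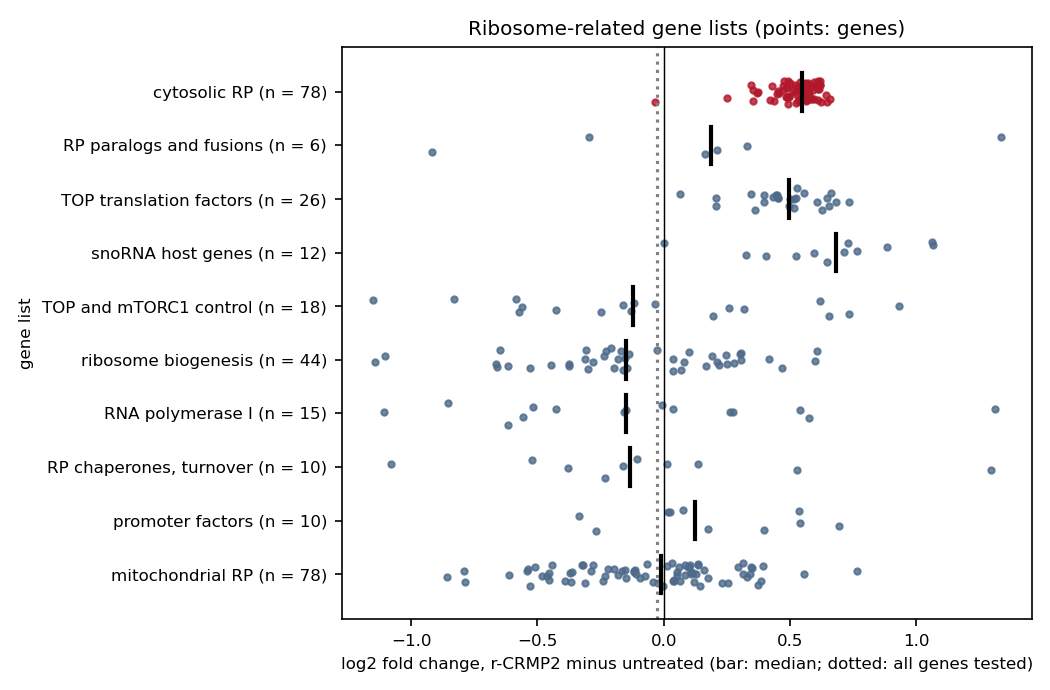
Log2 fold change (r-CRMP2 minus untreated, TMM scaling, horizontal axis) of each gene tested in the cytosolic RP class and in 9 related lists (vertical axis), with a bar at each median and a dotted line at the median of all genes (-0.03). Cytosolic RP genes, other TOP translation genes and snoRNA hosts lie right of 0 (medians 0.55, 0.50 and 0.68) except RPL39L at -0.03, while the other lists spread to both sides; by library size alone the medians of RP-like genes and promoter factors turn to -0.12 and -0.18.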

How the data were processed

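The deposited tables, 1 per library, gave read counts and TPM for each gene with its position and length. The authors sequenced poly(A)-selected RNA with paired ends; their processing notes name FastQC, HISAT2, DESeq2 and hg19, while the counting tool, annotation and use of strand are not given in the sources used here. The deposited TPM equalled counts over length rescaled to a fixed total, and was used for levels only. Deposited counts were tested in edgeR 4.0.16 (R 4.3.3): filterByExpr, TMM, quasi-likelihood test, treatment as the only term, Benjamini-Hochberg adjustment over all 16222 genes tested, with thresholds of 0.05 and, as a second call, an absolute log2 fold change over 1. CPM values are TMM-scaled unless stated. SE is that of the difference between group means of log2 CPM (prior count 2), computed apart from the edgeR fit. Total counts were 21888530 to 25711353 per library.

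The members and lists were chosen with earlier results of these data known. Named members were the 5 highest and 5 lowest in fold change and in TPM, the listed stalk, RPL5 and RPL11 particle, restricted paralog and known-role genes, and any opposite call; in other lists, the 2 highest and 2 lowest called, the RP-like genes outside the rule (an item of this list is not reported here), and LARP1, MYC, EIF4EBP1 and RPS6KB1. CD68, CDH5, COL1A1, EIF3M, COX4I1 and the genes not called in a list were named after their values were seen. Tests on simulated counts of this comparison recovered 23 of 50 genes changed by 0.25, 49 of 50 by 0.5, and 50 of 50 each by 1 and by 2 (log2), with 11 calls among 15742 unchanged genes. The changed genes were drawn from abundant genes only, in random directions, and were far fewer than those called in the data. These rates therefore do not extend to genes of low counts or to the choice of scaling. Alternatives were DESeq2 1.42.0, other scalings and filters, pseudogene counts added, a replicate block and leaving out each library.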

Additional observations from a re-analysis of the deposited data

How the results depend on the processing

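The count of 77 higher RP genes held with DESeq2, other size factors, other filters, added pseudogene counts and each library left out (77 in each such fit, median 0.48 to 0.61); the scalings below moved it. A test against a fold change of 1.2 (edgeR's glmTreat) called 72 RP genes higher. The share of all genes called by that test was not computed, so this count has no background beside it. With library size alone, 66 RP genes were higher, 1 RP gene was lower, 2171 of all genes were higher and 8449 lower in place of 4574 and 4875. With the summed RP counts as library size, which sets the class to about 0 by construction, 0 RP genes were higher and 7 lower, and 1024 and 10599 of all genes. Medians with library size and with the RP total were 0.24 and 0.0060 for RP genes, -0.12 and -0.35 for RP-like genes, 0.19 and -0.041 for TOP translation genes, 0.37 and 0.14 for snoRNA hosts, -0.43 and -0.66 for TOP control, -0.46 and -0.68 for biogenesis, -0.46 and -0.68 for the ribosomal RNA polymerase, -0.44 and -0.67 for chaperones, -0.18 and -0.41 for promoter factors, and -0.32 and -0.55 for mitochondrial RPs. Upper-quartile factors gave 0.14 for RP-like genes, -0.17 for TOP control, -0.20 for the polymerase and 0.079 for promoter factors. With each library left out these medians ranged from 0.14 to 0.23 for RP-like genes, from -0.15 to -0.10 for the polymerase and from 0.10 to 0.17 for promoter factors, and RP genes called against the RP total numbered 4 to 12 lower and 0 to 1 higher. The RP share in untreated cells was 6.80% with pseudogenes and 7.16% without mitochondrial genes.

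Same-numbered libraries did not deviate together (correlations -0.02, 0.0038 and -0.03), so the numbers were not taken as pairs. With the replicate block 77 RP genes were higher and 4, in place of 7, were lower than the RP total.

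Among named genes, the estimates that changed sign were those of RPL39L (0.015, 0.024 and 0.026 without untreated replicate 3, r-CRMP2 replicate 1 or r-CRMP2 replicate 3); with library size, RPS26 (-0.061), IMPDH2 (-0.11), EIF3G (-0.10), RPL36AL (-0.15), RPS27L (-0.10) and LARP1 (-0.11); and with the RP total, RPS26 (-0.29), RPL6 (-0.20), RPL36 (-0.19), RPL19 (-0.19), RPS2 (-0.063), RPLP1 (-0.060), RPS29 (-0.17), RPS23 (-0.056), RPL11 (-0.014), RPLP2 (-0.053), RPS27A (-0.047), RPS19 (-0.012), RPL38 (-0.17), RPL41 (-0.0020), IMPDH2 (-0.33), EIF3G (-0.33), SNHG8 (-0.21), SNHG5 (-0.13), NAP1L1 (-0.013), FAU (-0.21), RPL36AL (-0.37), RPS27L (-0.33) and LARP1 (-0.33). With the RP total, 42 of the 78 RP genes had a positive estimate. Of the estimates of named genes under alternatives, 1085 kept direction and call, 49 lost and 2 gained the call, and 32 changed sign. Depth was too low to test RPL3L and RPL10L. RPL39L had 457 to 681 counts per library, so counting noise may add to its error. For the other members edgeR's error rests on the spread between 3 libraries, estimated with information from all genes.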
